A study of Mus musculus with 7 samples.

Results

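The 78 genes described here encode the proteins of the mitochondrial ribosome and carry the symbols Mrpl or Mrps followed by a number. All such symbols among the counted genes were taken, pseudogenes (-ps) left out, which gave 78 of 32285 genes. The rule reads symbols only, although the family was taken up with earlier results of these data known. By known role, 51 belong to the large subunit, which forms peptide bonds, and 26 to the small subunit, which reads the mRNA. Mrps30 and Mrps18a are among the 51, since their proteins sit in the large subunit despite their names. Mrps36 was counted in neither, since its protein is known as part of the 2-oxoglutarate dehydrogenase complex. Of the 77 others, 45 were classed as having a bacterial homolog and 32 as specific to mitochondria. Mrps18a and Mrps18b were placed among the 32, although they are paralogs of Mrps18c, which was placed among the 45.

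The mitochondrial ribosome translates the mRNAs of the mitochondrial genome, all of which encode parts of oxidative phosphorylation. Its own proteins are encoded in the nucleus, made in the cytosol and imported, so their mRNAs are counted like any other nuclear transcript. In the ventricular-subventricular zone (V-SVZ), neural stem cells are known to rely largely on glycolysis and fatty acid oxidation, and mitochondrial content and respiration are known to increase as their progeny differentiate into neurons.

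Single-cell RNA was counted in the V-SVZ of mice at 31 to 33 days of age, with the tissue of 2 to 3 mice of both sexes pooled in each of 7 libraries. The 3 control libraries are labelled Prdmflox/flox and so carry floxed alleles without Cre. The 3 cKO libraries are labelled hGFAP-Cre+/-; Prdm16flox/flox, and the 1 DKO library hGFAP-Cre+/-; Prdm16flox/flox; Vcam1flox/flox. The human GFAP promoter drives Cre in embryonic radial glia and hence in their progeny, whereas blood vessels and microglia have another origin. Endothelial-, mural- and microglia-like cells therefore served as the types outside the Cre lineage. Unique molecular identifiers (UMIs) count each captured 3′ end once, and levels are given as CPM, the UMIs of a gene scaled to the total of the same cells, without division by transcript length. In such sums over cells, fewer cells of a kind within a named type and less RNA per cell cannot be told apart.

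The libraries held 45758003 to 141353017 UMIs, and 43346 of 65049 barcodes passed the limits of 500 to 7000 genes and at most 10% mitochondrial counts. The share that passed was 49.8% in cKO library 2 and 47.2% in cKO library 3, against 70.2% to 74.7% in the other 5 libraries. Between 2 and 70 barcode sequences were shared by each pair of libraries, 731 cells in all. Clusters were named from markers, and each named cluster carried at least 3 markers of its type (Thbs4 and Gfap in the neural stem cell (NSC)-like cells, Top2a and Egfr in the transit amplifying progenitor (TAP)-like cells). Cluster 7, led by the replication genes Ung, Cdc6 and Mcm2 together with Dll3 and Gsx1, met the rule for no type and is given by its number. In its control libraries the 5 TAP markers summed to 1008 to 1380 CPM and the 5 neuroblast markers to 1653 to 2178 CPM. The NSC-like cluster also carried all 6 astrocyte markers. The endothelial-like cluster carried 3 erythrocyte markers, whose list summed to 15632 to 26611 CPM in its control and to 19100 to 36404 CPM in its cKO libraries. The hemoglobin-led cells and 3 further clusters without a name were not compared. In NSC-like cells Prdm16 itself, the gene flanked by the floxed sites, was at 75.3, 63.2 and 70.3 CPM in the control libraries and at 55.4, 51.3 and 46.7 CPM in the cKO libraries. In astrocyte-like cells it was at 53.0, 46.0 and 44.6 CPM in the control and at 47.2, 63.1 and 51.5 CPM in the cKO libraries. Tags are read from the 3′ end of the transcript, and whether they lie outside the deleted part was not examined. These values therefore do not check the labels. Vcam1 in NSC-like cells was at 108 to 156 CPM in the control, at 152 to 185 CPM in the cKO and at 89.3 CPM in the DKO library. In astrocyte-like cells Vcam1 was at 311 to 406 CPM in the control, at 365 to 398 CPM in the cKO and at 182 CPM in the DKO library. Control library 1 stood low for the family and cKO library 2 held few cells (211 NSC-like, 90 astrocyte-like), so differences of cKO from control that rest on either are given without it as well.

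All 78 genes passed the filter on low counts in all 12 cell types compared, and they lie on 17 chromosomes. In control NSC-like cells their mean levels ran from 11.4 to 231.6 CPM with a median of 55.3 CPM. The promoter windows of the family, 250 bases before to 50 bases after the RefSeq transcription start on GRCm38.p6, were found for 69 of the 78 genes. The search covered 3 motifs bound by factors known to act on nuclear genes for mitochondrial proteins on both strands. CCGGAAG, the core bound by ETS factors such as GABP, occurred in the windows of 26 of the 69 genes (37.7%) against 9.93% of all 27025 genes with a window. The motif of nuclear respiratory factor 1 (NRF1), GCGCA followed by 1 base of any kind and GCGC, occurred in 13 (18.8%) against 5.19%. AAGATGG, the core bound by YY1, occurred in 13 (18.8%) against 7.28%, and its longer form, AAGATGG followed directly by CGGC, in 5 (7.25%) against 0.755%. At least 1 of the 3 motifs was present in 43 of the 69 genes (62.3%) and in 20.0% of all genes. The median position of the 31 ETS matches was 17 bases before the start.

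Stretches of 130 bases from the windows of 2 genes with the NRF1 motif and 2 with the ETS motif, upstream of the start, are shown as examples of where the matches lie. The sequences lie on GRCm38.p6 at chr3:94443188-94443317 (Mrpl9), chr11:97315586-97315715 (Mrpl45), chr11:58171531-58171660 (Mrpl22) and chr14:54426779-54426908 (Mrpl52), all on the + strand, and capitals mark the matches.
Mrpl9: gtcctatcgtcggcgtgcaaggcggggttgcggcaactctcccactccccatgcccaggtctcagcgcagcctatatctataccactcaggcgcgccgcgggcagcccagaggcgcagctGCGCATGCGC
Mrpl45: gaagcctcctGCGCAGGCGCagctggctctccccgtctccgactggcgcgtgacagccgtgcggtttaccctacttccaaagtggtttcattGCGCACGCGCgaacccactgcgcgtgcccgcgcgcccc
Mrpl22: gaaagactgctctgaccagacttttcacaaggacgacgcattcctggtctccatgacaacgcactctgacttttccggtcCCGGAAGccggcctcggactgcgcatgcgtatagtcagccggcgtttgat
Mrpl52: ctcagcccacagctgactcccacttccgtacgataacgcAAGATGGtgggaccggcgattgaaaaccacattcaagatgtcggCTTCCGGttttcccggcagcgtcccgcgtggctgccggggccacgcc
In Mrpl9 the NRF1 motif begins 28 bases before the start and reads the same on both strands. Mrpl45 carries it at 120 and at 38 bases before the start, and Mrpl52 carries both a YY1 core and an ETS core on the opposite strand. Outside the printed stretches, Mrpl45 has a further NRF1 match 15 bases past its start and Mrpl52 a further ETS match 2 bases past its own.

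The longer YY1 form lay just after the start in 4 of the 5 genes that hold it, at 11 (Mrps18a), 14 (Mrps27), 23 (Mrpl35) and 26 (Mrpl37) bases past it. These 29-base stretches come from chr17:46111006-46111034 (+), chr13:99344791-99344819 (+), chr6:71823742-71823770 (-) and chr4:107066821-107066849 (-), with the motif in capitals.
Mrps18a: gtgcgttccAAGATGGCGGCcctcagggc
Mrps27: gtgcgctccAAGATGGCGGCtcccatggt
Mrpl35: gcaggctgcAAGATGGCGGCttccatctt
Mrpl37: gcacgggcaAAGATGGCGGCgtccaggta
The remaining gene was Mrps11, where it lay 110 bases before the start and on the opposite strand. Mrps11 and Mrpl46 are transcribed away from each other from starts 42 bases apart on chromosome 7 (78783131 and 78783089). The match thus lies past the start of Mrpl46 and on the strand of that gene.

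The summed level of the family differed between cell types by up to 2.13-fold in control libraries. It was highest in cluster 7, at 6564, 7552 and 7452 CPM, and next in TAP-like cells, at 6206, 6851 and 6774 CPM. Microglia-like cells were lowest, at 2900, 3751 and 3453 CPM. Cluster 7 ranked first and TAP-like cells ranked second in each of the 7 libraries, cKO and DKO included.

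Between these ends the control means fell from 5881 CPM in neuron-like and 5829 CPM in oligodendrocyte precursor (OPC)-like cells to 5394 CPM in ependymal-like and 5362 CPM in neuroblast-like cells. NSC-like cells followed at 5088 ± 403 CPM (SD, n = 3) and astrocyte-like cells at 4501 ± 544 CPM. Mural-, endothelial- and oligodendrocyte-like cells came next, at 4379, 4172 and 4084 CPM. Every pair of neighbours in this order overlapped in its control values across libraries, although all types come from the same libraries and cluster 7 lay above TAP-like cells within each of the 7. NSC-like cells (4628, 5378 and 5259 CPM) lay below TAP-like cells (6206 to 6851 CPM) with no overlap. Library sums of neuron-like cells spread most, since control library 1 stood at 4615 CPM and cKO library 2 at 3532 CPM, far from the other libraries (5546 to 6650 CPM).

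**Figure D1:**
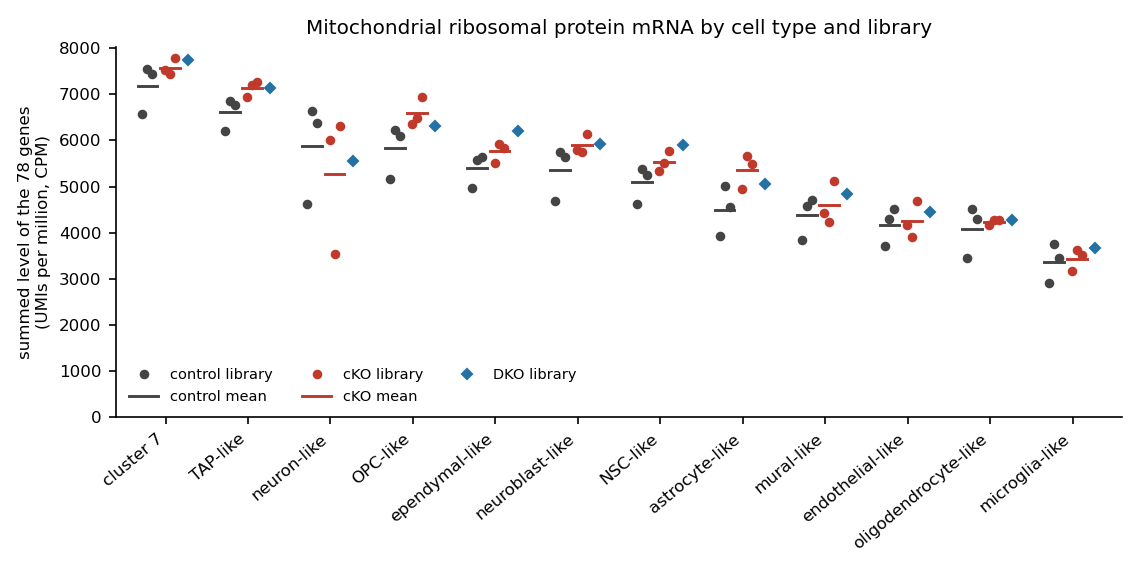
Summed level of the 78 genes in CPM (y axis, from 0) in 12 cell types (x axis), with 1 point for each of 3 control, 3 cKO and 1 DKO libraries and a bar at the mean of the control and of the cKO libraries. Cluster 7 and TAP-like cells stand highest and microglia-like cells lowest, and control library 1 (4628 CPM in NSC-like cells) lies below the other control libraries in every type.

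Gene by gene, control means were highest in cluster 7 for 35 of the 78 genes, in TAP-like cells for 13, in neuron-like cells for 10, and in ependymal- and OPC-like cells for 8 each. They were lowest in microglia-like cells for 34 and in oligodendrocyte-like cells for 24. The median gene spanned 1.35 on the log2 scale between its highest and lowest type, and the range over genes was 0.74 to 3.08. The ratio of large to small subunit mRNA lay close to 2 in every type. Its control mean was highest in TAP-like cells, at 2.25, 2.22 and 2.20 in the control libraries, and lowest in OPC-like cells, at 1.88, 1.85 and 1.87, with no overlap between these types. OPC-like cells overlapped with astrocyte-like (1.96, 1.92 and 1.81) and NSC-like cells. In NSC-like cells the ratio was 1.93, 1.91 and 1.86 in the control libraries and 1.87, 1.83 and 1.77 in the cKO libraries, which overlap.

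The 6 genes named next departed most from the order of types that the family shares, measured as the residual after removing each gene's mean and each type's mean on the log2 scale over the control libraries. Mrps6, a small subunit protein of the platform with a bacterial homolog, was at 185, 200 and 157 CPM in control ependymal-like cells and at no more than 67.0 CPM in any control library of the other types. Mrpl39, a large subunit protein specific to mitochondria, was also highest in ependymal-like cells, at 92.2, 101 and 81.5 CPM against 34.7 to 46.9 CPM in TAP-like cells, the next type. Both genes thus stood apart in the multiciliated cells of the ventricle wall, with no overlap with the next type.

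Mrps7, which contacts the mRNA path in the small subunit head, was at 228, 195 and 185 CPM in control OPC-like cells. Its cKO values there were 247, 244 and 214 CPM and its DKO value 163 CPM, while oligodendrocyte-like cells, the next type, were at 84.0 to 102 CPM in all 7 libraries. The high level was thus found in every library and was not shared by oligodendrocyte-like cells. Mrpl48, a protein of the central protuberance, was highest in oligodendrocyte-like cells (99.4, 132 and 115 CPM) and lowest in neuroblast-like cells (43.0, 47.3 and 44.1 CPM). Mrpl52, another large subunit protein, was lowest in oligodendrocyte-like cells, at 29.3, 64.2 and 64.2 CPM, against 174, 290 and 342 CPM in cluster 7. Mrpl53, also of the large subunit, was low in NSC-like cells, at 41.6, 54.4 and 50.2 CPM, against 113, 134 and 147 CPM in cluster 7.

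**Figure D2:**
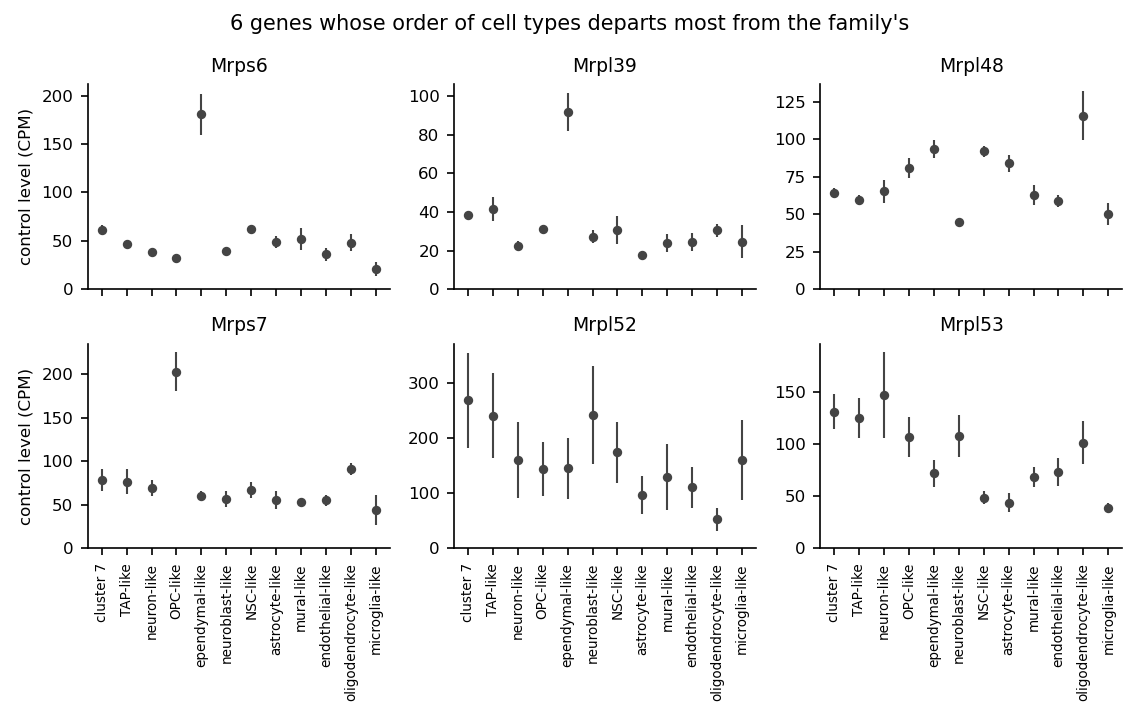
Control levels of the 6 genes whose order of cell types departs most from that of the family (a panel for each gene, y axes in CPM from 0, x axes the 12 cell types), as the mean of 3 control libraries with bars of 1 SD. Mrps6 and Mrpl39 peak in ependymal-like cells, Mrps7 in OPC-like cells and Mrpl48 in oligodendrocyte-like cells.

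Several genes were low in both libraries numbered 1. Mrpl23 and Mrpl52 of the large subunit, Mrpl33 of the same subunit, Mrps21 of the small subunit, and Mrps36 were lower in both control library 1 and cKO library 1 than in the other 4 control and cKO libraries in 11 of the 12 types. These are 5 of 78 members (6.41%), against 1.79% of the 7932 genes tested in every type. In at least 9 types the same held for 9 members (11.5%), against 2.86%, which adds Mrpl14, Mrps18c, Mrps5 and Mrpl57. On the log2 scale the mean differences of the first 5 were -0.58, -0.92, -0.76, -0.89 and -0.51. For Mrpl52 in NSC-like cells the values were 111, 196 and 216 CPM in control libraries 1 to 3 and 132, 216 and 228 CPM in cKO libraries 1 to 3. Its spread within each group there was thus larger than the difference between the groups.

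The comparison of cKO with control libraries asked how the family stood in mice whose radial glia lose Prdm16. In 11 of the 12 types the median gene of the family was higher in the cKO than in the control libraries, by 0.08 to 0.26 on the log2 scale, and in neuron-like cells it was lower, by 0.10. By edgeR, 1 gene, Mrps6 in astrocyte-like cells, passed the test. The medians over all genes tested lay between -0.02 and 0.02. Fold changes are on the scale that edgeR sets by trimmed means of M values (TMM).

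In NSC-like cells 68 of the 78 genes (87.2%) were higher in the cKO libraries, where 49.5% of all 14381 genes tested were, with a median of 0.18. None was called by edgeR's quasi-likelihood test after adjustment over all genes (Benjamini-Hochberg) (background 0.153% called), and 4 (5.13%) had an unadjusted p under 0.05, against 13.9% of all genes. That count was 1 without control library 1 (10.1% of all genes), 2 without cKO library 2 (8.37%), 1 without cKO library 3 (8.05%), 7 without control library 3 (13.1%) and 11 without cKO library 1 (22.9%). DESeq2 called 1, Mrps6, where it called 3.95% of all genes. In 11 genes (14.1%) every cKO library lay above every control library and in 1 (1.28%) below, against 7.01% and 10.1% of all genes. The median was 0.18 in the large and 0.18 in the small subunit, 0.14 in genes with a bacterial homolog and 0.20 in those specific to mitochondria. The summed level was 4628, 5378 and 5259 CPM in the control and 5342, 5502 and 5763 CPM in the cKO libraries, which overlap, and 5904 CPM in the DKO library.

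In astrocyte-like cells 74 genes were higher in cKO (94.9%, against 49.7% of all genes), with a median of 0.22. Mrps6 alone was called, where 1.32% of all genes were, and 7 genes (8.97%) had an unadjusted p under 0.05, against 10.1% of all. That count was 2 without control library 1 (7.63% of all genes), 11 without control library 2 (9.20%) and 12 without control library 3 (11.5%). DESeq2 also called 1 member, where it called 1.67% of all genes. Groups did not overlap in 16 genes (20.5%) with cKO above and in 0 with cKO below, against 7.26% and 6.66% of all genes. The summed level was 3934, 5018 and 4551 CPM in the control and 4938, 5666 and 5488 CPM in the cKO libraries, overlapping by 1 library.

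OPC-like cells had the largest median, 0.26, with 72 genes higher (92.3%, against 49.9%). Unadjusted p-values under 0.05 were found for 10 genes (12.8%), all higher in cKO, against 4.52% of all genes. The count was 1 without control library 1 (3.08% of all genes), 6 without control library 2 (3.37%), 24 without control library 3 (8.09%) and 3 without cKO library 3 (5.49%). None was called by edgeR (background 0%) or by DESeq2 (0.00798%). The summed level was 5165, 6218 and 6103 CPM in the control and 6355, 6481 and 6941 CPM in the cKO libraries, without overlap. The groups did not overlap in 9 genes (11.5%) with cKO above and in 2 (2.56%) below, against 2.07% and 10% of all genes. Mrps34, a small subunit protein specific to mitochondria, was at 59.0, 57.9 and 68.4 CPM in control and at 84.4, 74.0 and 79.4 CPM in cKO libraries. Mrpl55 of the large subunit was at 59.0, 78.3 and 68.4 CPM in control and at 79.0, 82.9 and 93.1 CPM in cKO libraries. The groups were separate for both, and their log2 fold changes were 0.47 ± 0.17 (SE) and 0.43 ± 0.17.

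In TAP-like cells 66 genes were higher (84.6%, against 48.6%), with a median of 0.15, 0 called by edgeR (background 0%) or by DESeq2 (0.489%), and 3 (3.85%) with an unadjusted p under 0.05, against 6.48% of all. That count was 1 without control library 1 (4.90%) or cKO library 2 (3.97%), 5 without control library 2 (4.78%) and 8 without control library 3 (8.79%). The summed level was 6206, 6851 and 6774 CPM in the control and 6936, 7201 and 7268 CPM in the cKO libraries, again without overlap. Every cKO library lay above every control library in 11 genes (14.1%) and below in 0, against 3.92% and 7.18% of all. Mrps25, a small subunit protein specific to mitochondria, was at 74.4, 73.6 and 78.6 CPM in control and at 90.6, 94.9 and 88.9 CPM in cKO TAP-like cells. Its groups did not overlap there, with a log2 fold change of 0.34 ± 0.14 (SE) that did not pass the adjustment.

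In cluster 7 the median was 0.10 with 56 genes higher (background 50.1%), in neuroblast-like cells 0.17 with 70 (52.1%), in ependymal-like cells 0.13 with 63 (50.6%) and in oligodendrocyte-like cells 0.09 with 60 (50.7%). The summed level in neuroblast-like cells was 4686, 5758 and 5641 CPM in the control and 5789, 5760 and 6129 CPM in the cKO libraries, separate by a narrow margin. Neuron-like cells had 17 genes higher (background 47.2%). No member was called in these 5 types by edgeR or by DESeq2, where 0.0827%, 0.0292%, 0.158%, 0% and 0.00754% of all genes were called by edgeR and 1.44%, 0.519%, 0.749%, 0.0286% and 0.0226% by DESeq2. Every cKO library lay above every control library in 4, 7, 4, 2 and 1 members, in the same order. It lay below in 1, 0, 4, 0 and 2 members. The shares of all genes for these separations are not given here. Unadjusted p-values under 0.05 were found for 1, 3, 2, 0 and 0 members, in the same order, against 9.32%, 8.58%, 8.57%, 1.93% and 3.05% of all genes. In neuroblast-like cells the count was 2 without control library 1 (5.51%) or control library 2 (5.51%) and 7 without control library 3 (11.2%), and in cluster 7 it was 3 without cKO library 1 (17.1%). In ependymal-like cells the count was 0 without control library 1 (6.65%), 1 without control library 2 (7.20%), cKO library 2 (6.15%) or cKO library 3 (6.05%), and 7 without control library 3 (8.29%) or cKO library 1 (13.2%). In oligodendrocyte-like cells, where the replicate number was taken to pair the libraries, it was 1 with the number as a block (4.57%). The labels state no pairing.

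The types outside the Cre lineage gave the background of the comparison. There the medians were 0.08 in endothelial-, 0.13 in mural- and 0.13 in microglia-like cells, with 59, 56 and 54 genes higher against 52.6%, 50.9% and 49.9% of all genes tested. No member was called there by edgeR (background 0% in each) or by DESeq2 (0.00881%, 0% and 0.0103%). Every cKO library lay above every control library in 2 (2.56%), 4 (5.13%) and 2 (2.56%) members, in the same order. It lay below in 2 (2.56%), 3 (3.85%) and 3 (3.85%). The shares of all genes for these separations are not given here. An unadjusted p under 0.05 was found for 1 (1.28%), 2 (2.56%) and 2 (2.56%) members, against 2.05%, 3.01% and 3.15% of all genes. In endothelial-like cells, where the replicate number was also taken to pair the libraries, the count was 4 with the number as a block (4.09% of all genes). Without the block it was 0 without control library 1 (1.75%) or cKO library 2 (1.96%), 3 without cKO library 1 (2.92%) and 7 without control library 3 (4.30%). With 1 library left out the counts ran from 0 (without cKO library 2) to 4 (without cKO library 1) in mural-like and from 0 (without control library 1 or cKO library 2) to 3 (without cKO library 1) in microglia-like cells. The shares of all genes are not given for these counts, which are therefore not read as a result about the family. Of the members with an unadjusted p under 0.05 with all libraries, Mrpl38 of the central protuberance was lower in cKO. It was at 47.8, 58.8 and 50.4 CPM in control and at 35.4, 35.4 and 35.2 CPM in cKO mural-like cells. Across the 12 types, 2 members (2.56%), Mrps10 and Mrps27, had cKO libraries all above the control libraries in some types and all below them in others, against 6.95% of the 7932 genes tested in every type.

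**Figure D3:**
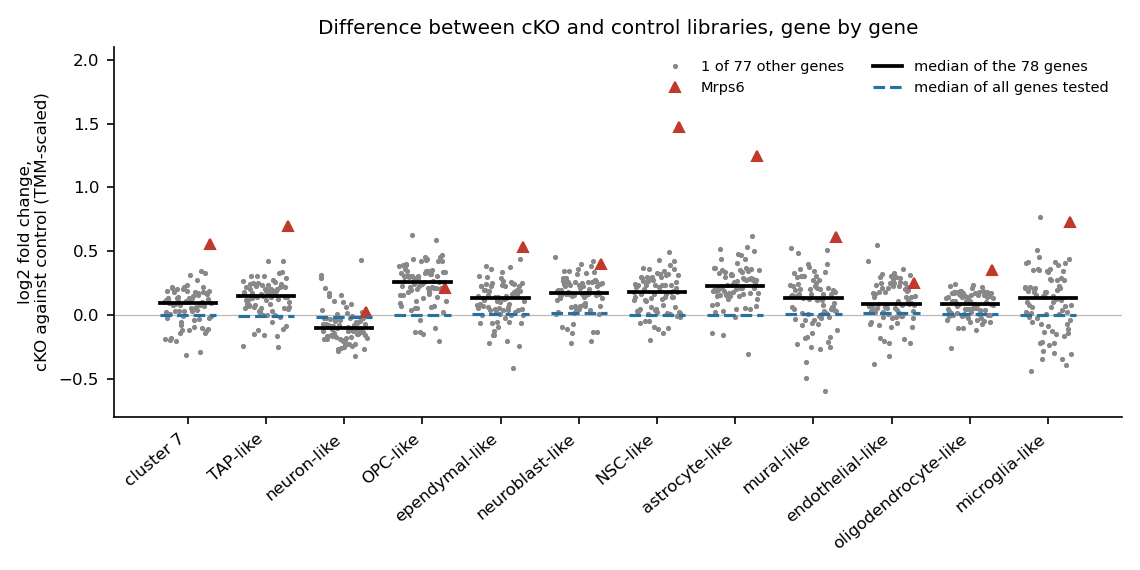
Log2 fold change of cKO against control (y axis, TMM-scaled, 0 meaning no difference) in 12 cell types (x axis), with 1 grey point for each of 77 genes, a triangle for Mrps6, a black bar at the median of the 78 genes and a dashed blue bar at the median of all genes tested. The black bar lies above the blue one except in neuron-like cells, including the 3 types outside the Cre lineage, and Mrps6 stands apart in NSC-like (1.47) and astrocyte-like (1.25) cells.

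The shift rested in part on control library 1, the lowest control library for the summed level in every type. Without it the medians were 0.07 in NSC-like, 0.12 in astrocyte-like, 0.19 in OPC-like, 0.08 in TAP-like, 0.08 in neuroblast-like and 0.04 in ependymal-like cells. They were -0.01 in cluster 7, -0.03 in oligodendrocyte-like, -0.002 in endothelial-like, 0.01 in mural-like and -0.01 in microglia-like cells. In NSC-like cells the median was also lower without cKO library 3, at 0.10. In mural-like cells it was -0.01 without cKO library 3, and in neuron-like cells it turned to 0.11 without cKO library 2 and to 0.02 without control library 3. The direction was thus lost in 4 types without control library 1 and in these 2 without another library, whereas 68 genes in astrocyte-like and 71 in OPC-like cells were higher in cKO without that library.

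The direction also depended on the scaling. With CPM of the library totals in place of TMM, the median over all genes moved to between -0.01 and -0.12, by over 0.1 in OPC-, endothelial- and microglia-like cells. The medians of the family were then 0.08 in NSC-like (53 genes higher), 0.23 in astrocyte-like (73), 0.14 in OPC-like (63) and 0.09 in TAP-like (55) cells, and they turned to -0.03 in endothelial-like (34) and -0.001 in microglia-like (39) cells. They were 0.06 in cluster 7 (51), 0.11 in neuroblast-like (61), 0.09 in ependymal-like (53), 0.04 in oligodendrocyte-like (46), 0.03 in mural-like (41) and -0.21 in neuron-like (10) cells. Relative to the median over all genes they were 0.17 in NSC-like, 0.24 in astrocyte-like, 0.27 in OPC-like, 0.07 in endothelial-like and 0.11 in microglia-like cells. Within the libraries of Cell Ranger version 6.0.1, the mean log2 CPM of the family differed by 0.08 in NSC-like, 0.23 in astrocyte-like, 0.12 in OPC-like and 0.07 in TAP-like cells. Within version 6.1.1, with 1 library of each group, it differed by 0.10, 0.26, 0.14 and 0.07.

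Whether cells of the Cre lineage differed from the types outside it was tested directly, as the difference between the fold change of a lineage type and that of endothelial-, mural- and microglia-like cells summed, with the library as a block. No member was called in any of 7 lineage types, where edgeR called 0.109% of all genes in NSC-like, 0.00654% in TAP-like, 0% in neuroblast-like, 0.45% in astrocyte-like, 0.125% in ependymal-like, 0.0138% in OPC-like and 0% in oligodendrocyte-like cells. DESeq2 was not run on this difference. The median member differed by 0.02 in NSC-like, -0.08 in TAP-like, -0.01 in neuroblast-like, -0.05 in ependymal-like and -0.09 in oligodendrocyte-like cells, where the medians over all genes were -0.02, -0.09, -0.07, -0.04 and -0.07. In NSC-like cells it was -0.02 without control library 3 (all genes -0.04), 0.06 without control library 1 (-0.01), 0.07 with the marker gate (-0.01) and 0.07 with endothelial-like cells alone as the outside type (0.02). The gate assigns each cell to the type with the largest share of its markers detected. It was 0.13 in astrocyte-like and 0.17 in OPC-like cells, where the medians over all genes were 0.004 and 0.03, and with 1 library left out it ran from 0.06 to 0.17 and from 0.12 to 0.22 there. With endothelial-like cells alone as the outside type it was 0.09 in OPC-like cells (all genes -0.02), and with the marker gate 0.07 in astrocyte-like cells (all genes -0.003).

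At an unadjusted p under 0.05 this difference was found for 5 members (6.41%) in astrocyte-like cells, against 7.58% of all genes, for 5 (6.41%) in OPC-like cells, against 4.37%, and for 1 (1.28%) in NSC-like cells, against 9.01%. In NSC-like cells the count was 4 with the marker gate (5.95% of all genes), 3 with endothelial-like cells alone (8.16%) and 0 without control library 2 (7.06%). In OPC-like cells the count was 0 without control library 3 (3.45% of all genes), 3 without cKO library 1 (4.02%) or cKO library 2 (3.69%), 9 without cKO library 3 (7.24%) or with the marker gate (5.36%) and 2 with endothelial-like cells alone (4.47%). In astrocyte-like cells it was 1 without control library 1 (6.32%), 2 without control library 3 (6.83%) or cKO library 1 (9.58%) and 7 without control library 2 (6.73%). In astrocyte-like cells the 5 were Mrpl9, Mrpl12, Mrpl23, Mrps16 and Mrps6, and in OPC-like cells they were Mrps33, Mrpl19, Mrps12, Mrpl57 and Mrpl2. Mrpl12 is the stalk protein that recruits translation factors, and Mrps12 lies at the decoding centre.

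Other gene lists of the same pathway, which share these libraries, are set beside the family. The list of nuclear respiratory chain genes includes those of complex II (Sdh) and, beyond the chain itself, genes of ATP synthase (Atp5). Its medians were 0.39 in NSC-like cells (80 of 85 higher), 0.28 in TAP-like, 0.26 in astrocyte-like, 0.36 in OPC-like and 0.18 in endothelial-like cells. The 13 mitochondrially encoded mRNAs, the templates of the mitochondrial ribosome, had 0.35 in NSC-like cells (13 higher), 0.08 in astrocyte-like and 0.25 in endothelial-like cells. Proteins of the cytosolic ribosome had 0.02 in NSC-like, 0.26 in astrocyte-like, 0.47 in OPC-like and 0.21 in endothelial-like cells. In NSC-like cells the family thus lay between the cytosolic ribosomal and the respiratory chain genes, and in astrocyte-like cells close to both.

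A further 73 genes, here called other mitochondrial translation genes, were assembly factors, translation factors, tRNA synthetases, ribosome subunits with other names and a list for mitochondrial transcription. That last list is broader than its name, since it also holds Polg, Polg2, Twnk, Ppargc1a, Nrf1, Gabpa and Yy1. The 73 genes had a median of -0.01 in NSC-like cells (36 higher), 0.01 in TAP-like, 0.08 in neuroblast-like, 0.05 in astrocyte-like, 0.03 in OPC-like and 0.01 in endothelial-like cells. Among them, the 5 ribosome subunits with other names had medians of 0.11 in NSC-like, 0.21 in TAP-like, 0.21 in neuroblast-like and 0.27 in OPC-like cells. The 14 translation factors had 0.01 in NSC-like, 0.17 in astrocyte-like (14 higher) and 0.20 in OPC-like cells. No gene of any of these lists was called by edgeR in any of the 12 types. The median mitochondrial share per NSC-like cell was 4.83%, 4.25% and 3.82% in the control libraries, 5.26%, 5.35% and 4.78% in the cKO libraries and 2.96% in the DKO library. Its part in the differences of these lists was not tested.

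**Figure D4:**
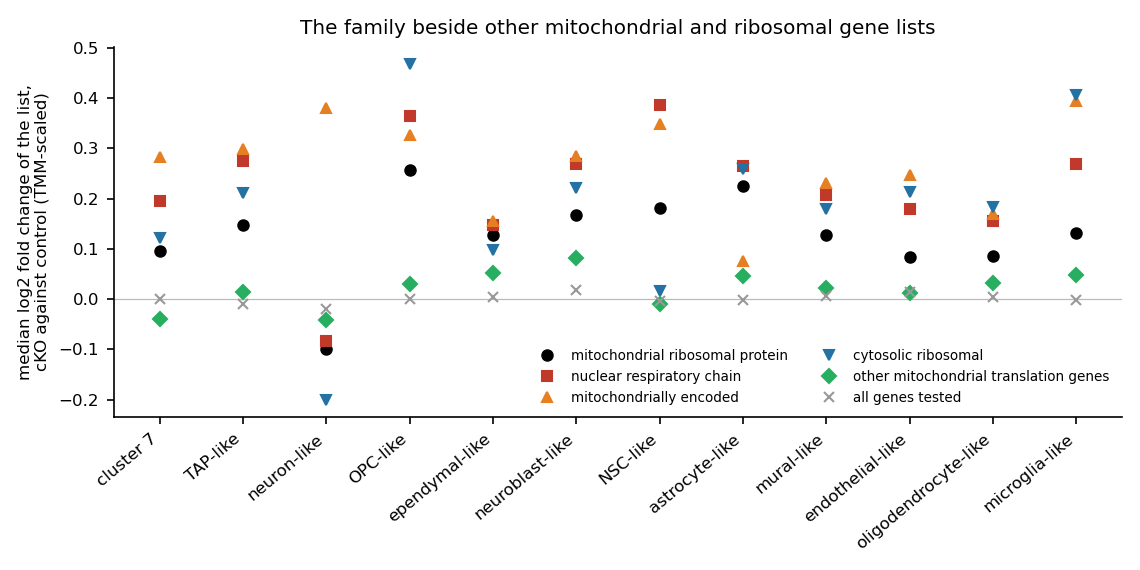
Median log2 fold change of cKO against control (y axis, TMM-scaled) of 5 gene lists and of all genes tested (symbols) in 12 cell types (x axis). The family lies between all genes tested and the nuclear respiratory chain genes in 11 types, and the other mitochondrial translation genes are at -0.01 in NSC-like and at 0.08 in neuroblast-like cells.

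Mrps6 stood apart from the rest of the family. In astrocyte-like cells it was at 46.3, 44.7 and 56.0 CPM in the control libraries and at 72.1, 156 and 129 CPM in the cKO libraries, with 102 CPM in the DKO library. Every cKO library lay above every control library. The log2 fold change was 1.25 ± 0.24 (SE, 3 libraries against 3) with an adjusted p of 0.0257 by edgeR's quasi-likelihood test (Benjamini-Hochberg). The call held under 12 of 16 alternatives and was lost without control library 1, control library 2, cKO library 2 or cKO library 3. Without 1 library, the log2 fold change lay between 1.07 and 1.5.

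In NSC-like cells Mrps6 was at 64.6, 57.1 and 63.5 CPM in the control and at 94.9, 203 and 184 CPM in the cKO libraries, with 122 CPM in the DKO library. The groups did not overlap, and cKO library 1 was closest to the controls. The other two cKO libraries are those that kept under 50% of their barcodes, and the part of this in the difference was not tested. The cells named NSC-like and astrocyte-like depended on the naming more in the cKO than in the control libraries. The clusters held 1098, 439 and 1253 NSC-like cells in the control and 878, 211 and 662 in the cKO libraries, and the marker gate 864, 337 and 1021 against 588, 71 and 213. For astrocyte-like cells the clusters held 425, 237 and 497 against 406, 90 and 291, and the gate 602, 290 and 718 against 682, 262 and 743. In gated NSC-like cells Mrps6 was at 66.4, 59.6 and 65.4 CPM in control and at 73.7, 132 and 180 CPM in cKO libraries (log2 fold change 1.03 ± 0.29). In gated astrocyte-like cells it was at 53.2, 46.6 and 56.1 against 105, 192 and 166 CPM (1.58 ± 0.21). The groups were separate in both gated types. In the NSC-like cells of the clusters, Mrps6 had a log2 fold change of 1.47 ± 0.27 (SE), the largest of the family there. Its adjusted p was 0.060 by edgeR's quasi-likelihood test. It was called by DESeq2, without the filter on low counts, with the replicate number as a block and without cKO library 1, where 3.95%, 2.59%, 3.52% and 11.5% of all genes were called, in that order. The range of its adjusted p over the 16 alternatives was 1.39e-06 to 0.475.

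In 4 further types every cKO library lay above every control library: cluster 7 (57.0, 67.0 and 60.5 against 76.6, 97.9 and 92.6 CPM), TAP-like (46.4, 50.9 and 42.6 against 57.7, 89.2 and 70.2 CPM), neuroblast-like (36.4, 43.7 and 39.9 against 49.6, 53.6 and 49.3 CPM) and mural-like cells (44.9, 46.3 and 64.9 against 79.2, 92.0 and 69.4 CPM). The log2 fold changes there were 0.56, 0.69, 0.40 and 0.61, and none was called. In ependymal-like cells, where Mrps6 was highest, the groups overlapped at 185, 200 and 157 against 217, 348 and 183 CPM. The difference between the fold change in the lineage type and that in the types outside it was 0.89 ± 0.31 (SE) in NSC-like cells and 0.73 ± 0.25 in astrocyte-like cells. With adjusted p-values of 0.443 and 0.418 by edgeR's quasi-likelihood test (Benjamini-Hochberg), neither passed. Over the 8 alternatives for this difference the adjusted p ran from 0.000481 to 0.858 in NSC-like cells, called without cKO library 1, and from 0.0129 to 0.759 in astrocyte-like cells, called without cKO library 1 and with the marker gate.

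Mrps6 lies on the + strand of chromosome 16 (92058270 to 92112227, GRCm38) and overlaps Slc5a3 (92058322 to 92087473), the sodium/myo-inositol cotransporter, on the same strand. The annotation gives them 159 bases of exon in common (92058322 to 92058480). Their RefSeq starts are 14 bases apart, so their promoter windows share 286 of 300 bases. The last exon of Mrps6 (92111733 to 92112227) begins 24259 bases past the end of Slc5a3, whose own last exon ends at 92087473. The 3′ tags of each gene thus have places of their own, yet tags in the shared exon cannot be assigned by position, and the values of both genes carry that uncertainty. In all, 3 genes of the family overlap another counted gene on the same strand, the other two being Mrps24 with Urgcp and Mrps34 with Nme3.

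The stretch upstream of both starts is shown because the pair stood together in NSC- and astrocyte-like cells. It covers chr16:92058086-92058269 on the + strand of GRCm38.p6, and the whole 300-base window of Mrps6 held none of the 3 motifs.
Mrps6 and Slc5a3: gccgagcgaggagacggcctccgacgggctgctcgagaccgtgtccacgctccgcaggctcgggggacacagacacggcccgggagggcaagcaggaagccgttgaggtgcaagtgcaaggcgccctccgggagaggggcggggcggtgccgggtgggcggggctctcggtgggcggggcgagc

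Slc5a3 in astrocyte-like cells was at 25, 17.2 and 18.7 CPM in the control and at 41.3, 61.2 and 52.1 CPM in the cKO libraries, with 31.6 CPM in the DKO library. It rose by 1.34 ± 0.20 (SE) on the log2 scale, with an adjusted p of 0.00231 by edgeR's quasi-likelihood test (Benjamini-Hochberg), and was called under all 16 alternatives. In NSC-like cells it was at 40.7, 22.8 and 27.3 CPM in the control and at 45.5, 146 and 79.1 CPM in the cKO libraries, without overlap. Its log2 fold change there, 1.65 ± 0.44, had an adjusted p of 0.177 by the same edgeR test (Benjamini-Hochberg). It was called there by DESeq2 and without cKO library 1, with adjusted p-values from 4.13e-05 to 0.607 over the 16 alternatives. In cluster 7 and in TAP-like cells, where the groups of Mrps6 were separate, those of Slc5a3 overlapped (log2 fold changes of 0.01 and 0.28).

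**Figure D5:**
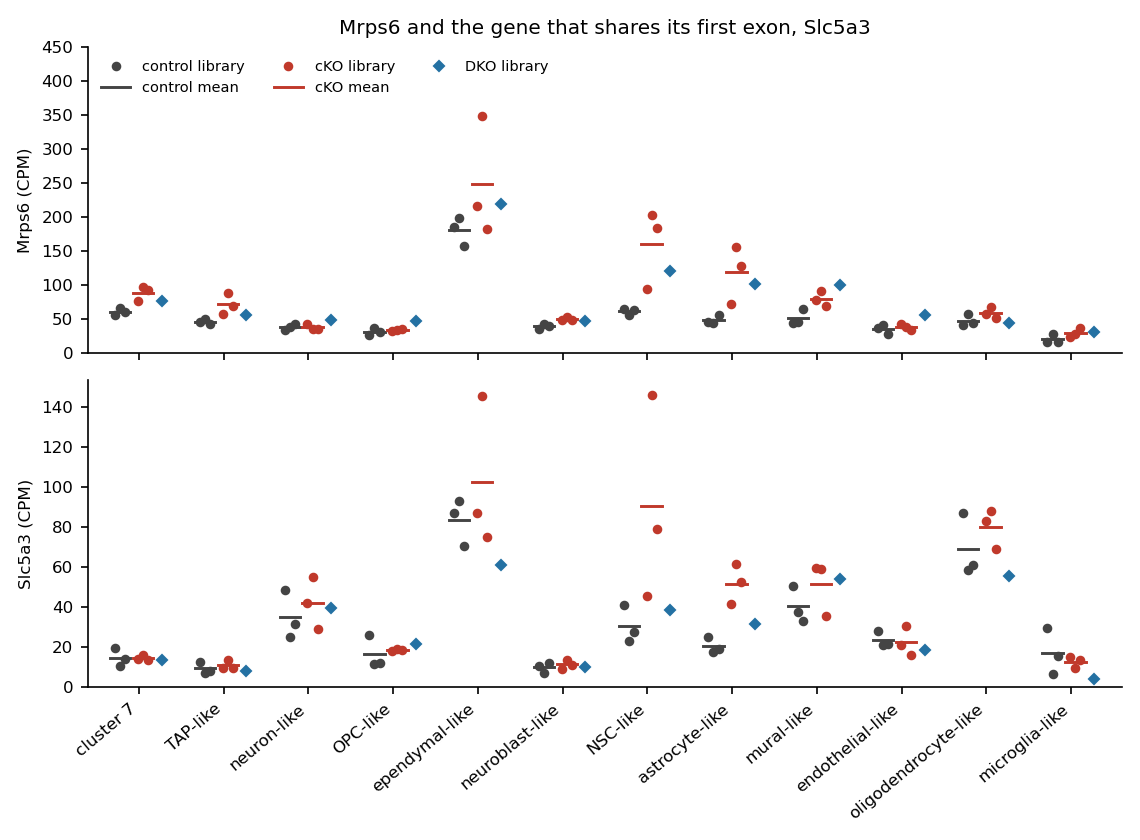
Levels of Mrps6 (top) and of Slc5a3 (bottom) in CPM (y axes, from 0) in 12 cell types (x axis), with 1 point for each of 3 control, 3 cKO and 1 DKO libraries and a bar at the mean of the control and of the cKO libraries. In NSC-like and astrocyte-like cells the cKO libraries of both genes lie above all control libraries, and in ependymal-like cells both genes are at their highest mean control level.

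Some sums of cell type markers were separate between the same groups. In NSC-like cells the 6 astrocyte markers summed to 1458 to 1485 CPM in the control and to 1602 to 2255 CPM in the cKO libraries. In astrocyte-like cells the same markers summed to 4357 to 4702 CPM in control and 5257 to 5520 CPM in cKO libraries, and the 5 endothelial markers to 6.26 to 20.7 CPM and 25.4 to 50.3 CPM. In TAP-like cells the 5 NSC markers summed to 357 to 450 CPM in control and 521 to 902 CPM in cKO libraries, and the 5 OPC markers to 35.3 to 37.2 CPM and 39.9 to 73.4 CPM. Other sums were lower in the cKO libraries. In NSC-like cells the 7 mural markers summed to 118 to 148 CPM in control and 87.4 to 112 CPM in cKO libraries, and the 4 fibroblast markers to 25.7 to 36 CPM and 13.3 to 21.9 CPM. The fibroblast markers summed to 26.1 to 35.7 CPM and 4.71 to 18.6 CPM in astrocyte-like cells, and the endothelial markers to 23.4 to 32.7 CPM and 13.1 to 21.0 CPM in TAP-like cells. In cluster 7 the NSC markers summed to 363 to 681 CPM in control and 748 to 963 CPM in cKO libraries, and the OPC markers to 29.5 to 35.2 CPM and 37.4 to 64.2 CPM. In mural-like cells the 5 ependymal markers summed to 486 to 677 CPM and 706 to 815 CPM, the endothelial markers to 118 to 130 CPM and 137 to 199 CPM, and the neuroblast markers to 208 to 446 CPM and 28.3 to 195 CPM. In ependymal-like cells the mural markers were at 395 to 608 CPM and 735 to 914 CPM, the 5 oligodendrocyte markers at 336 to 505 CPM and 149 to 278 CPM, and the fibroblast markers at 37.2 to 41.2 CPM and 15.2 to 30.7 CPM. The TAP markers in neuroblast-like cells were at 48.6 to 58.2 CPM and 24.4 to 42.0 CPM, and the neuroblast markers in oligodendrocyte-like cells at 102 to 124 CPM and 34.6 to 88.4 CPM. Choroid plexus markers were lower in the cKO libraries, with control sums of at most 11.8 CPM, in cluster 7, OPC-, neuron- and microglia-like cells. None of these sums overlapped between the groups. They were picked for that from the sums of all marker lists in the 12 types, the others of which are not given. How many would be separate without any difference was not tested, nor was their part in the differences of Mrps6 and of the family.

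Of the genes with the smallest p-values in NSC-like cells after Mrps6, none passed the adjustment. Mrpl51, a large subunit protein specific to mitochondria, was at 100, 121 and 121 CPM in control and at 124, 155 and 153 CPM in cKO NSC-like cells. Its groups did not overlap, and its log2 fold change was 0.43 ± 0.17 (SE) with an adjusted p of 0.301 by edgeR's quasi-likelihood test (Benjamini-Hochberg). Mrpl48 of the central protuberance was at 90.8, 96.2 and 88.4 against 103, 109 and 113 CPM. Mrps11, of the small subunit platform, was at 42.1, 40.4 and 32.0 against 45.2, 41.6 and 47.9 CPM, and Mrps18a at 51.1, 62.3 and 52.0 against 65.5, 66.7 and 61.7 CPM. The groups were separate for Mrpl48 and overlapped for Mrps11 and Mrps18a.

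In astrocyte-like cells the next after Mrps6 was Mrpl22, which lines the exit tunnel, at 24.6, 35.2 and 30.4 CPM in control and at 39.0, 43.0 and 46.1 CPM in cKO libraries. Its log2 fold change was 0.51 ± 0.19 (SE) with an adjusted p of 0.302 by edgeR's quasi-likelihood test (Benjamini-Hochberg). Mrps31, a small subunit protein specific to mitochondria, was at 31.7, 42.1 and 35.8 against 53.5, 61.2 and 42.1 CPM. Mrpl53 was at 34.6, 52.9 and 43.6 against 55.3, 72.2 and 57.2 CPM, and Mrpl9, a large subunit protein with a bacterial homolog, at 35.5, 28.4 and 29.9 against 48.1, 46.6 and 35.3 CPM. Control and cKO libraries were separate for Mrpl22 and Mrpl53. In cKO library 3, Mrps31 and Mrpl9 lay just below their highest control library.

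None of the genes chosen for their known places in the ribosome passed the test in NSC- or astrocyte-like cells. In NSC-like cells the stalk proteins Mrpl10, Mrpl11 and Mrpl12 had log2 fold changes of 0.12, 0.14 and 0.24. The tunnel exit proteins Mrpl22, Mrpl23 and Mrpl24 had 0.29, 0.37 and 0.27, and Mrpl45, which holds the ribosome at the inner membrane, 0.04. Of the central protuberance proteins, Mrpl40, Mrpl46 and Mrpl48 had 0.28, 0.24 and 0.33, whereas Mrpl38 had -0.20, the lowest of the 78. Mrpl58, a ribosome rescue hydrolase built into the large subunit, had 0.24, and Mrps12 of the decoding centre 0.24.

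The 3 Mrps18 paralogs, of which only Mrps18c was classed as the homolog of a bacterial protein, had the following values in NSC-like cells. Mrps18c was at 27.5, 44.6 and 49.4 CPM in control and at 42.7, 51.3 and 66.7 CPM in cKO libraries, with a log2 fold change of 0.49. Mrps18b was at 24.2, 26.6 and 22.9 against 23.8, 19.0 and 20.9 CPM, with -0.10. Mrps18a, given above, had 0.32. Mrps36, the gene whose protein belongs to another complex, was at 69.6, 109 and 103 against 90.4, 122 and 119 CPM, with 0.32. The differences between the paralogs were not tested, and none of the 4 was called.

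The most abundant members by tags in control NSC-like cells were Mrps33, a small subunit protein specific to mitochondria (201, 243 and 251 CPM), Mrps14 of the small subunit head (169, 184 and 190 CPM), Mrpl52 and Mrps24, of the small subunit (104, 133 and 140 CPM). Their cKO values were 255, 227 and 275 CPM for Mrps33, 207, 163 and 192 CPM for Mrps14 and 120, 123 and 147 CPM for Mrps24. The groups overlapped for all of these. Of the others among the 10 highest (Mrpl51, Mrpl23, Mrpl42, Mrps21, Mrpl17 and Mrpl28), the groups were separate for Mrpl51 and for Mrpl42, a large subunit protein at 105, 109 and 116 against 128, 130 and 119 CPM.

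The DKO library has no replicate, and its values are given without a test. In NSC-like cells 48 of the 78 genes (61.5%) lay above all 3 control libraries and 4 (5.13%) below, against 19.3% and 33.5% of all genes tested. In ependymal-like cells 40 (51.3%) lay above and 7 (8.97%) below, against 20.3% and 34% of all genes. In astrocyte-like cells 33 (42.3%) lay above and 2 (2.56%) below, against 23.5% and 27.1%, whereas in neuron-like cells 6 (7.69%) lay above and 20 (25.6%) below, against 19.2% and 30%. The median difference from the control mean was 0.18 on the log2 scale in NSC-like and 0.16 in both astrocyte- and ependymal-like cells, and it was -0.10 in neuron-like cells.

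Against the cKO libraries the DKO library stood on different sides in different types. In NSC-like cells 26 genes (33.3%) lay above and 4 (5.13%) below all 3 cKO libraries, against 20.6% and 25% of all genes, and in ependymal-like cells 32 (41.0%) and 6 (7.69%), against 22% and 28%. Fewer lay above than below in astrocyte-like cells, at 9 (11.5%) and 19 (24.4%), against 20.3% and 24.7% of all genes. The counts were 11 (14.1%) and 19 (24.4%) in TAP-like cells, against 15% and 26.5%, and 17 (21.8%) and 24 (30.8%) in OPC-like cells, against 33.5% and 18.5%.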

How the data were processed

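Single-cell 3′ RNA (10x Genomics) was measured in 7 libraries. The deposited matrices hold raw UMI counts that the authors made with Cell Ranger on mm10 (GRCm38). The file headers name versions 6.0.1 (control 1 and 2, cKO 1 and 2) and 6.1.1 (control 3, cKO 3, DKO), and the submitters' processing notes name 6.1.1. The 43346 kept cells were integrated and clustered in Seurat 5.3.0 (R 4.3.3) on 2000 features, none of them a member, which gave 17 clusters, 13 of them named from markers. Scrublet (scanpy 1.11.5, Python 3.11.15, expected rate 0.08) marked 1043 doublets, which were kept in the main comparison, and its threshold was replaced in 1 library.

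Counts were summed over the cells of each library and type with at least 10 cells, and compared in edgeR 4.0.16 (filterByExpr, TMM, robust quasi-likelihood test, all 7 libraries in 1 fit) with Benjamini-Hochberg adjustment over all genes and a threshold of 0.05. The p-values measure the spread between libraries of pooled mice. DESeq2 1.42.0 and the other alternatives stand in the closing section. The edgeR test was also run on simulated independent libraries with larger changes, which does not show how it performs on shifts as small as the family's. Libraries of equal replicate number deviated together in every pair, at correlations over 0.1, only in oligodendrocyte-like (0.36, 0.17 and 0.46) and endothelial-like cells (0.20, 0.13 and 0.39). There the number was taken to pair the libraries, from the counts alone. The labels state no pairing, and all types come from the same libraries. The genes named are the 10 highest in control NSC-like cells, every called member and the 5 smallest p-values in NSC- and astrocyte-like cells, the 6 profiles that depart most, and genes of set roles. Others (Mrps25, Mrps34, Mrpl55, Mrps10, Mrps27, Mrpl38 in mural-like cells, those with low libraries 1 and those with the longer YY1 motif) were chosen after their values were seen. The family and the lists were chosen with earlier results of these data known, and the members within the family by symbol. Promoter sequences are from RefSeq (GRCm38.p6), gene positions from GENCODE vM21.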

Additional observations from a re-analysis of the deposited data

Results flagged for a closer look

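For 2 genes every cKO library lay above every control library in some cell types and below in others, and the difference between the types was not tested. These are 2.56% of the members, against 6.95% of the genes tested in every type. Mrps10, of the small subunit head, was at 25.9, 33.1 and 34.6 CPM in control and at 35.4, 50.3 and 36 CPM in cKO astrocyte-like cells (log2 fold change 0.33). Its groups were separate with cKO below in NSC-, ependymal- (log2 fold change -0.20) and microglia-like cells (-0.30). In NSC-like cells it was at 43.4, 52.0 and 45.0 CPM in control and at 41.5, 40.2 and 37.6 CPM in cKO libraries. Mrps27, a small subunit protein specific to mitochondria, was at 7.93, 10.3 and 9.74 CPM in control and at 10.9, 11.9 and 18.8 CPM in cKO astrocyte-like cells (log2 fold change 0.62). Its cKO libraries also lay above in oligodendrocyte- (0.14) and neuron-like cells (0.43). In OPC-like cells it was at 11.3, 11.3 and 15.2 CPM in control and at 10.9, 9.81 and 10.2 CPM in cKO libraries. None of these differences was called by edgeR.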

How the results depend on the processing

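Mrps6 decided every count of members called that moved. Members called went from 0 to 1 in NSC-like cells by DESeq2, with no filter and with the replicate block, in cluster 7 with the replicate block, and in TAP-like cells with no filter and with the replicate block. The same move was found in the difference between astrocyte-like cells and the types outside the lineage with the marker gate. There 89 genes were called higher and 24 lower of all 14837 tested. Outside the oligodendrocyte- and endothelial-like cells the libraries numbered 2 did not reach the correlation of 0.1 asked of every pair. Those numbered 1 and 3 mostly did, and in NSC-like cells the correlations of pairs 1 to 3 were 0.27, -0.0048 and 0.38. The number was not taken to pair the libraries there, although part of their spread was shared. The block changed no other call. With it, 18 members had an unadjusted p under 0.05 in TAP-like (12.2% of all genes), 10 in ependymal-like (12.7%), 9 in NSC-like (17.8%), 25 in OPC-like (7.91%), 21 in astrocyte-like (14.7%) and 9 in neuroblast-like cells (13.9%) and 5 in cluster 7 (14.6%). With 1 library left out, the count was 0 to 1 in NSC-like cells, cluster 7, TAP-like and astrocyte-like cells (0 without control library 1 or 2 or cKO library 2 or 3), and 0 to 1 in the lineage difference of NSC- and astrocyte-like cells (1 without cKO library 1). In that difference without cKO library 1, edgeR called 427 genes higher and 210 lower of all 15579 tested in NSC-like cells. In astrocyte-like cells it called 133 higher and 106 lower of 14415. For cluster 7, TAP-like and astrocyte-like cells the share of all genes called with the block, without the filter or with 1 library left out is not given here.

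Leaving out 1 library, the median of the family ran from 0.0744 to 0.259 in NSC-like cells (lowest without control library 1, 0.0998 without cKO library 3), from -0.00897 to 0.141 in cluster 7, from 0.0802 to 0.205 in TAP-like, from 0.0757 to 0.252 in neuroblast-like, from 0.0434 to 0.228 in ependymal-like (0.0737 without cKO library 3) and from -0.0134 to 0.200 in microglia-like cells. In the lineage difference it ran from -0.135 to -0.00428 in TAP-like and from -0.0771 to 0.0354 in ependymal-like cells, and it changed sign in NSC-like (-0.0192 without control library 3, 0.0635 without control library 1) and neuroblast-like cells (0.0105 without cKO library 3). With endothelial-like cells alone as the outside type it was -0.000261 in TAP-like, -0.00247 in ependymal-like and 0.0180 in neuroblast-like cells, and in TAP-like cells chosen by the marker gate the cKO median was 0.101. The cause was not tested. Mrps6 in neuron-like cells turned from 0.02 to -0.0783 without control library 1 and to -0.0338 without cKO library 1, in a range of -0.0783 to 0.166 over the libraries left out.

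Control sums of the family were 7397 CPM in TAP-like cells by the marker gate, and 5829 CPM in ependymal-like and 6425 CPM in neuron-like cells with at most 5% mitochondrial counts. With abundant and mitochondrial genes left out of the total they were 5843 in NSC-like, 7022 in TAP-like, 5447 in astrocyte-like, 6011 in ependymal-like, 6443 in OPC-like, 4687 in oligodendrocyte-like, 4599 in endothelial-like and 5073 CPM in mural-like cells, by construction. Neuroblast-like cells were then at 5838 CPM, at rank 7 and just below NSC-like cells at rank 6, and oligodendrocyte-like cells (rank 10) stood above endothelial-like cells (rank 11). Leaving out the cells with shared barcodes, chosen after seeing the data, moved no median of the family by more than the spread between libraries and no count of members called, nor did leaving out doublets or the DKO library, or the Cell Ranger version as a block. The block on version moved the members with an unadjusted p under 0.05 from 3 to 5 in TAP-like (8.03% of all genes) and from 2 to 4 in ependymal-like cells (9.88%). Without the DKO library edgeR called 2 genes in all in NSC-like cells, where it called 22 with it.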

Other observations

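Relative to the nuclear mRNAs of the respiratory chain, the family's mRNA had its highest control mean in cluster 7. The ratio of the summed levels there was 0.331, 0.263 and 0.266 in the control libraries. Microglia-like (0.317, 0.280 and 0.251) and TAP-like cells (0.325, 0.254 and 0.257) overlapped with it. The control mean was lowest in mural-like cells (0.212, 0.176 and 0.176), which overlapped with neuron-like cells (0.222, 0.179 and 0.177). In NSC-like cells the ratio was 0.284, 0.225 and 0.224 in the control libraries and 0.259, 0.201 and 0.190 in the cKO libraries. Control library 1 and cKO library 1 were the highest of their group in cluster 7, mural- and NSC-like cells, and cluster 7 and mural-like cells did not overlap in the control libraries.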
